A study of Mus musculus with 35 samples.

Results

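A set of autosomal regions of the mouse genome carried both H3K27me3 and H3K36me3 in oocyte-like cells at c13, and H3K36me3 without H3K27me3 at c34. They were found in 10 kb bins laid from the start of each of 19 autosomes. A bin was taken when peaks of both marks covered it in c13 and peaks of H3K36me3, but not of H3K27me3, covered it in c34. The rule took 24912 bins out of 246110, which is 249 Mb of 2461 Mb or 10.1% of the autosomes. The c13 and c34 lists of these marks chose the bins, so their states there are given as a description only. The E18.5 and germinal vesicle (GV) lists, the c7 list, all H3K4me3 lists and the gene annotation were not used by the rule.

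The assay, CATCH-seq, immunoprecipitates unfixed chromatin of few cells after cutting it with micrococcal nuclease, with carrier DNA added against losses. Oogonia-like cells at c7 and oocyte-like cells at c13 and c34 were cultured from the embryonic stem cell line H18, which carries the reporters Prdm1-mVenus and Dppa3-ECFP and is labelled WT. E18.5 oocytes came from fetal mice with the same reporters, and GV oocytes, which are full-grown and arrested in the first meiotic prophase, from BDF1 mice. The labels give 2 libraries of each mark in c13, c34 and E18.5 oocytes, except for 4 of H3K4me3 in c13. In c7 there were 2 libraries of H3K27me3, and in GV oocytes 2 of H3K36me3 and 1 of each other mark. All cultured stages came from 1 cell line, so the effects of culture and of this line cannot be told apart when these stages are set against oocytes of animals.

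There was 1 peak list per stage and mark, so no difference below could be set against replicate spread and none was tested. Read depth was unknown. The range over 19 autosomes and the number of autosomes with a given direction describe variation along the genome, and neighbouring bins are not replicates. Of the germ cell marker genes Ddx4, Dazl, Nobox, Figla, Sohlh1, Sohlh2, Gdf9, Zp3 and Sycp3, H3K4me3 marked the starts of 9 of 9 in c13, c34 and GV oocytes and 8 of 9 at E18.5, where Zp3 lacked it. Of the 8 ovarian somatic markers, 8 were marked in c13, 6 in c34, 3 in E18.5 oocytes and 7 in GV oocytes. H3K4me3 lies on starts that are not transcribed too, and whether somatic cells added to the lists was not tested.

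H3K36me3 is laid down by SETD2 along transcribed gene bodies, and in growing oocytes it guides DNMT3A with its partner DNMT3L to methylate DNA there. H3K27me3 is placed by Polycomb repressive complex PRC2 over silent developmental genes and, in oocytes, over wide domains outside transcribed units. On a single histone tail, H3K36me3 hinders PRC2, so both marks rarely share a tail. H3K4me3 marks promoters, and in growing oocytes the methyltransferase MLL2 (Kmt2b) spreads it into broad domains over unmethylated DNA. A bin with both marks can therefore hold them on different histone tails, nucleosomes, alleles or cells, and these cannot be told apart in peak lists.

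The results on genes turn on promoters, and RefSeq sequences (GRCm38.p6) of 6 of them are printed from 250 bases before to 50 after the annotated start, 5′ to 3′ on the gene's strand, with every CG dinucleotide in capitals. CG was counted on the printed strand, and its count is the same on both. Among all promoters of this length with a known strand, 95.04% held 1 CG or more. The first group carried H3K4me3 at the start in c34 and GV oocytes but lacked it in c13 and at E18.5. Khdc3 (chr9:73102148-73102447, plus strand, 0 CG) and Padi6 (chr4:140742594-140742893, minus strand, 2 CG) encode parts of the subcortical maternal complex and the cytoplasmic lattices. H1f8 (chr6:115944681-115944980, plus strand, 5 CG) encodes the oocyte linker histone.
Khdc3: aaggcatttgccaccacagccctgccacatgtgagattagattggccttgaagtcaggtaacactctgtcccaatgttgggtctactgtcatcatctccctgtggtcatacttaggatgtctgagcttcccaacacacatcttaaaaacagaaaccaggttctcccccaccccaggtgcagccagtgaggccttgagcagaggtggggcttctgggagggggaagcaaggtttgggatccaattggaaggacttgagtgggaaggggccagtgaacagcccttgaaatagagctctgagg
Padi6: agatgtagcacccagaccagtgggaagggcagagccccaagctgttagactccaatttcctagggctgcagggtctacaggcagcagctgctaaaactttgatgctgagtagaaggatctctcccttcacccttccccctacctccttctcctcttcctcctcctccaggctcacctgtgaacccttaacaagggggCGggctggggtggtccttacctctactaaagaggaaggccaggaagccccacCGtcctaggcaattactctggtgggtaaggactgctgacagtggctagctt
H1f8: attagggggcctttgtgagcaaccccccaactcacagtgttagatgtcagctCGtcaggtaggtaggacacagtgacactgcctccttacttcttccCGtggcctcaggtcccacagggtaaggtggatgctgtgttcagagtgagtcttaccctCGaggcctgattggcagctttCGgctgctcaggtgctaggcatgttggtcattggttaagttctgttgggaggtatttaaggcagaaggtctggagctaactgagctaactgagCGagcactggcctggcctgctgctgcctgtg

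The second group was marked in c13, c34 and GV oocytes but not at E18.5. Zp3 (chr5:135979855-135980154, plus strand, 7 CG) encodes a protein of the zona pellucida, the coat of the egg. Dnmt3l (chr10:78042037-78042336, plus strand, 6 CG) encodes the cofactor of DNA methylation in growing oocytes.
Zp3: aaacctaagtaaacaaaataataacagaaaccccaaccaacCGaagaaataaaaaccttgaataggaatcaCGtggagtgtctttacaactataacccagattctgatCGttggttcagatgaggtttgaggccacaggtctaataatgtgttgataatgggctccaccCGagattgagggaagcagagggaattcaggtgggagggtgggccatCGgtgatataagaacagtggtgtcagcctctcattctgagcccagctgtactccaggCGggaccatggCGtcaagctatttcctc
Dnmt3l: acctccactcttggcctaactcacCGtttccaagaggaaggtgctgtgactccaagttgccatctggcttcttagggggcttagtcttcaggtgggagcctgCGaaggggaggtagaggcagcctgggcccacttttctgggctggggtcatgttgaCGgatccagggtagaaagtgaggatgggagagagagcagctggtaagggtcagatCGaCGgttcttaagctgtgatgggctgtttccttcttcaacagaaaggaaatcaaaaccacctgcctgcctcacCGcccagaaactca

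The last promoter was marked by H3K4me3 at all 4 stages with a list. Ddx4 (chr13:112652261-112652560, minus strand, 38 CG) encodes an RNA helicase of germ cells, and its promoter is rich in CG.
Ddx4: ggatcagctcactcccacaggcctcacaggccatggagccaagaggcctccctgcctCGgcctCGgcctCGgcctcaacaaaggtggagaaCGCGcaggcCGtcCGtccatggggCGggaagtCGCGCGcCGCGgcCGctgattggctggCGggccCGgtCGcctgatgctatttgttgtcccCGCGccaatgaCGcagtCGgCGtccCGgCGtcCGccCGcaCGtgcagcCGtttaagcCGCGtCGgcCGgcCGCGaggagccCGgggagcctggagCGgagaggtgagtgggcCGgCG

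The 24912 bins made up 31.7% of the 78523 bins that carried both marks in c13. Of the other c13 double-marked bins, 34825 became H3K27me3 only in c34, 14070 kept both marks and 4716 lost both. H3K27me3 only was thus the commonest c34 state, at 44.4% of c13 double-marked bins. Seen from c34, the regions were 35.6% of the 69951 bins with H3K36me3 only. The remainder came from 22054 bins that already had H3K36me3 only in c13, 17841 with neither mark and 5144 with H3K27me3 only.

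Most of the c13 double marking lay in very wide H3K36me3 peaks, which were at least 1 Mb long for 68808 of the 78523 double-marked bins, or 87.6%. In c13, 88.4% of the bins lay in H3K36me3 peaks of at least 1 Mb, beside 80.6% of all bins covered by that list. In c13 H3K27me3 peaks of that width lay 37.5% of the bins, beside 37.0% of all bins that list covered. In c34, 8.17% of the bins lay in H3K36me3 peaks of that width, beside 4.93% of all bins covered there. When c13 peaks of 1 Mb or more were left out, 2448 bins met the rule in place of 24912. Leaving out only the wide H3K36me3 peaks gave 2893 bins, and only the wide H3K27me3 peaks 15560. The number of regions therefore rests mainly on the wide c13 H3K36me3 peaks.

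The bins formed 3044 runs with a median length of 50 kb, of which 478 were single bins. The 819 runs of at least 100 kb held 64.6% of the length. Counts per autosome lay between 556 on chromosome 3 and 2167 on chromosome 11. As a share of the c13 double-marked bins they ranged from 23.1% on chromosome 3 to 42.9% on chromosome 5.

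The longest run, chr18:38500001-39380000, spanned 880 kb over Arhgap26, with the growth factor gene Fgf1 and Spry4, an inhibitor of its signalling. The next, chr16:5230001-6100000, reached 870 kb and held the first part of Rbfox1, a neuronal splicing factor, with Alg1 and Eef2kmt. Both lacked H3K27me3 and H3K36me3 at E18.5 and were covered by H3K36me3 over 100% of their length in GV oocytes.

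The third run, chr5:130460001-131310000, spanned 850 kb over Caln1 and Galnt17. It carried H3K27me3 over 100% of its length both in c7 and at E18.5, and H3K36me3 over 100% in GV oocytes. The fourth run, chr5:131680001-132500000, lay inside Auts2, a gene of neuronal development, with H3K27me3 over 2.44% in c7 and none at E18.5. The fifth, chr13:62810001-63570000, held Fbp2, Fbp1, Aopep, Fancc and Ptch1. It was covered by H3K36me3 over 100% at E18.5 and 90.8% in GV oocytes. Regions of the same c13 and c34 states thus had different fetal states.

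The bins just outside the runs show which mark set each edge. Of 6088 such bins, 48.2% carried H3K27me3 in c34, 31.3% lacked H3K27me3 in c13, 30.0% lacked H3K36me3 in c34 and 3.33% lacked H3K36me3 in c13, and a bin could fail in more than 1 way. In GV oocytes, 61.1% of these flanking bins had H3K36me3 only. The outermost bins inside the runs had that state in 83.1% and the inner bins in 94.0%.

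In GV oocytes the regions were mostly H3K36me3 only. This state held in 22811 of the 24912 bins, or 91.6%, beside a background of 34.4% of all autosomal bins. Another 1663 bins, or 6.68%, had neither mark, beside 37.3% of all bins. Both marks lay on 314 bins, or 1.26%, beside 4.16%, and H3K27me3 alone on 124 bins, or 0.498%, beside 24.2%. H3K27me3 in any state was found in 1.76% of the bins, beside 28.3% of all bins. Of the c13 double-marked bins that became H3K27me3 only in c34, 6.37% were H3K36me3 only in GV oocytes and 62.4% were H3K27me3 only.

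The GV state was similar on every autosome. The share of bins with H3K36me3 only ranged from 86.3% on chromosome 3 to 95.5% on chromosome 8, with a median of 92.2%. It exceeded the share among bins that became H3K27me3 only, and the share among all bins, on 19 of 19 autosomes. The GV and c34 lists share no samples. Among c34 H3K36me3-only bins of other c13 origin, the GV share with H3K36me3 only was 93.0% for bins with H3K36me3 only in c13, 88.3% for those with H3K27me3 only and 75.7% for those with neither mark. No test of these differences was possible.

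**Figure D1:**
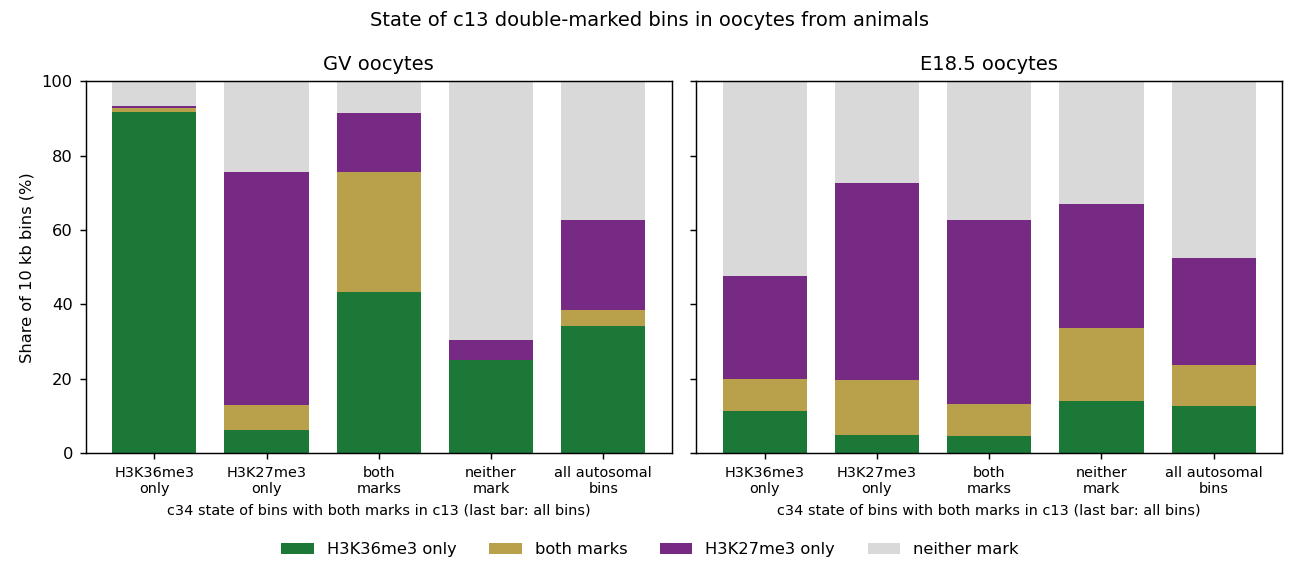
Stacked bars give the share of 10 kb bins (%) by state in GV oocytes (left) and E18.5 oocytes (right), for bins with both marks in c13 grouped by their c34 state, with all autosomal bins last. In GV oocytes 91.6% of the bins that became H3K36me3 only had that state, and at E18.5 52.2% had neither mark.

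At E18.5 the same regions looked different from both c34 and GV oocytes. Neither mark covered 52.2% of the bins, beside a background of 47.4%. H3K27me3 alone was found in 27.8%, beside 28.7%, H3K36me3 alone in 11.4%, beside 12.9%, and both marks in 8.57%, beside 11%. H3K27me3 covered 36.4% of the bins, beside 39.7% of all bins, and H3K36me3 covered 20.0%, beside 23.8%. The shares of both marks thus lay near their backgrounds. Bins that became H3K27me3 only in c34 had H3K27me3 at E18.5 in 67.9% and H3K36me3 in 19.8%.

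The E18.5 values varied widely along the genome. H3K27me3 covered between 22.6% of the bins on chromosome 9 and 55.1% on chromosome 8. It was below the share in bins that became H3K27me3 only on 19 of 19 autosomes, and below the share in all bins on 15 of 19. H3K36me3 covered between 1.696% of the bins on chromosome 9 and 74.9% on chromosome 14.

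Whatever their E18.5 state, most of these bins were H3K36me3 only in GV oocytes. Of the 6932 bins with H3K27me3 only at E18.5, 91.2% were H3K36me3 only in GV oocytes, and so were 90.6% of the 2836 bins with H3K36me3 only at E18.5. The share was 87.8% of the 2134 bins with both marks and 92.6% of the 13010 bins with neither. Over all autosomal bins it was 25.7% of those with H3K27me3 only at E18.5, 50.4% with H3K36me3 only, 30.0% with both and 36.2% with neither.

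In c7, which has no H3K36me3 list, H3K27me3 covered 44.0% of the bins, beside a background of 35.1%. Bins that became H3K27me3 only in c34 had it in 66.8%. The share was lower than in those bins on 19 of 19 autosomes and higher than in all bins on 15 of 19. H3K27me3 was present in both c7 and E18.5 lists in 6825 bins, or 27.4%, beside 24.7% of all bins, and in neither in 11719, or 47.0%, beside 49.9%. The share of bins with H3K36me3 only in GV oocytes was 90.2% where both lists had H3K27me3 and 92.8% where neither had it, beside 27.5% and 40.3% over all bins of these kinds.

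**Figure D2:**
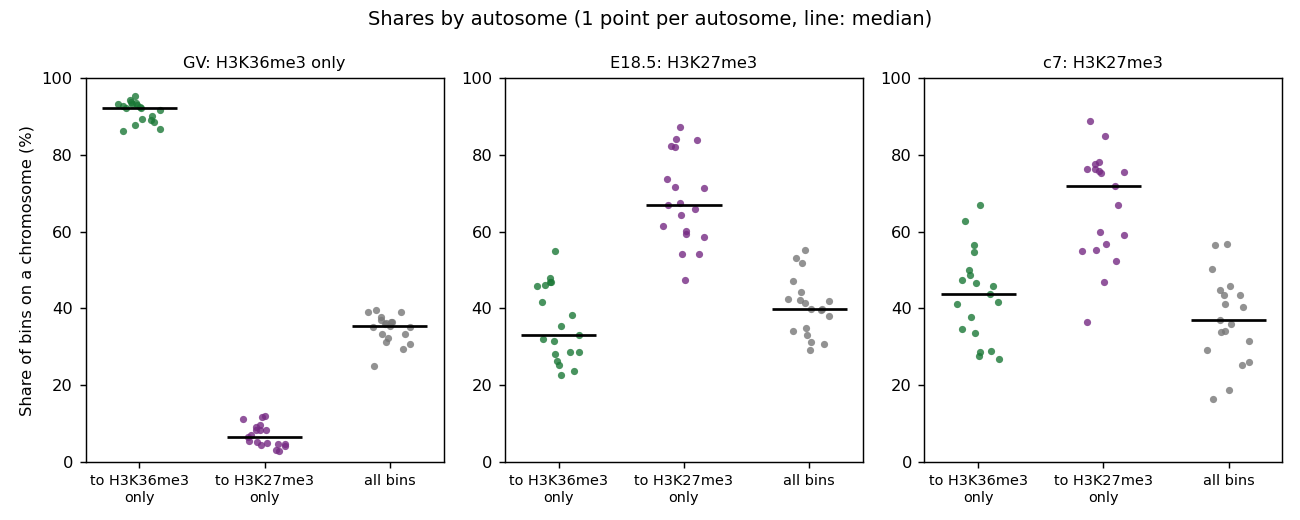
Each point is 1 of 19 autosomes and gives the share of its bins (%) with H3K36me3 only in GV oocytes, H3K27me3 at E18.5 or H3K27me3 in c7, for c13 double-marked bins that became H3K36me3 only (left), those that became H3K27me3 only (middle) and all bins (right), with the median as a line. In GV oocytes the points of the H3K36me3-only set lie between 86.3% and 95.5%, above all other points of that panel.

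H3K4me3 covered more of these regions than of the genome in the cultured stages and at E18.5. It lay over 28.0% of their length in c13, 25.9% in c34, 12.4% in the E18.5 list and 25.1% in that of GV oocytes. Over all bins the shares were 10.2%, 10.3%, 5.35% and 24.9% at these stages. The regions were above all bins on 19 of 19 autosomes in c13, c34 and at E18.5, and on 9 of 19 in GV oocytes. At least 1 peak touched 45.5% of the bins in c13, beside a background of 20.6%, 47.9% in c34, beside 22.3%, 30.2% at E18.5, beside 14%, and 43.7% in GV oocytes, beside 36.5%. By length, H3K4me3 covered 16.9%, 9.18%, 7.24% and 38.0% of the bins that became H3K27me3 only at these stages. By length the regions thus lay above those bins in c13, c34 and at E18.5. In GV oocytes they lay below them, on 19 of 19 autosomes. Bins that kept both marks had 28.1% of their length under c13 peaks, beside 28.0% for the regions. Their share under c34 peaks was 16.3%, under E18.5 peaks 10.2% and under GV peaks 33.6%. For bins that lost both marks, c13 peaks covered 14.1% and c34 peaks 29.6%. The high c13 share was thus not particular to the regions.

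The position of H3K4me3 within the regions overlapped more between c34 and GV oocytes than between c34 and c13. The c34 and GV peaks shared 42.9 Mb, which is 66.5% of the c34 length and 68.7% of the GV length in these regions. Over the autosomes the shared length was 75.6% of the c34 and 31.2% of the GV length. With c13, the c34 peaks in the regions shared 49.0% of their own length and 45.2% of the c13 length, beside 37.5% and 37.8% over the autosomes. The regions thus lay above the autosomes in the c34 overlap with c13 and below them in the share of c34 length that GV peaks covered. Peaks touching the regions had a median width of 7 kb in c13, 8 kb in c34, 5 kb in E18.5 oocytes and 10 kb in GV oocytes, beside 4, 5, 4 and 11 kb for all peaks.

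H3K4me3 was denser near gene starts but not limited to them. Within 5 kb of a start it covered 53.2% of the regions' length in c13, 50.5% in c34, 30.9% in E18.5 oocytes and 48.0% in GV oocytes. Away from starts it covered 22.5%, 20.5%, 8.36% and 20.1%. Over all autosomal bins away from starts the shares were 7.55%, 8.04%, 3.61% and 22.6%.

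**Figure D3:**
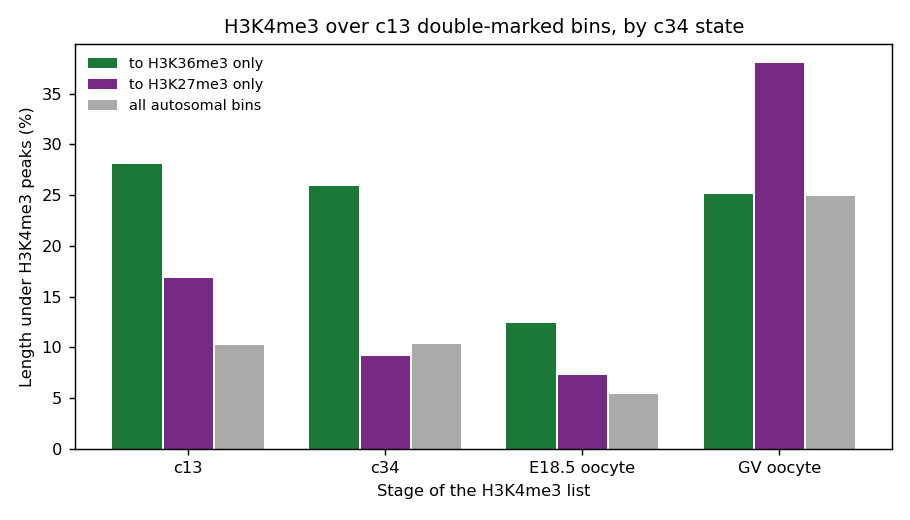
Bars give the length under H3K4me3 peaks (%) in c13, c34, E18.5 and GV lists for c13 double-marked bins that became H3K36me3 only or H3K27me3 only in c34, and for all autosomal bins. The H3K36me3-only set has 28.0% in c13 and 25.1% in GV oocytes, where the H3K27me3-only set has 38.0%.

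The 1663 bins that had neither H3K27me3 nor H3K36me3 in GV oocytes were the part of the regions richest in GV H3K4me3. H3K4me3 covered 29.2% of their length in c13, 45.6% in c34, 16.9% in E18.5 oocytes and 71.2% in GV oocytes. The bins that were H3K36me3 only in GV oocytes had 28.0% in c13, 24.7% in c34, 12.1% in E18.5 oocytes and 21.8% in GV oocytes. All autosomal bins with neither mark in GV oocytes had 38.8% in GV oocytes. Both GV lists come from oocytes of the same kind, so these shares describe how the GV marks lie relative to each other.

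Gene bodies filled much of the regions. Protein-coding bodies covered 65.2% of their length, 34.1% of the bins that became H3K27me3 only and 39.99% of all bins. Bins with H3K36me3 only in both c13 and c34 were more genic, at 83.6%. The regions held 12.7 gene starts per Mb, bins that became H3K27me3 only 7.07 and all bins 6.69. Bins that kept both marks held 12.1, and bins with H3K36me3 only in both c13 and c34 also held 12.1. This density was thus not particular to the regions.

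Of the regions, 13133 bins lay wholly inside a gene and 6435 touched no protein-coding gene. The bins inside genes were H3K36me3 only in GV oocytes in 95.3%, and those without a gene in 85.6%. Over all autosomal bins the shares were 54.3% inside genes and 19.3% without a gene. H3K27me3 at E18.5 covered 30.7% of the bins inside genes and 54.4% of those without a gene, and the shares over all autosomal bins were 32.0% and 45.3%. In c7 it covered 39.3% of the bins inside genes and 55.1% of those without a gene, beside 32.5% and 35.4% of all autosomal bins. The RefSeq table used here places 919 miRNA hairpins on autosomes, of which 232, or 25.2%, lay in the regions, which hold 10.1% of the autosomal bins.

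Genes were assigned to the regions when at least 50% of the annotated body lay in them. This held for 3973 of 20665 autosomal protein-coding genes, a background of 19.2% against which each gene list is read, and 2978 of them lay wholly inside. Without the c13 peaks of 1 Mb or more, 315 genes met this measure. Just above 50%, Gata4 had 56.4% and Rad21l 59.5% of the body in the regions. Just below it, Mov10l1 had 48.6%, Patl2 45.2% and Mest 43.4%, with GV H3K36me3 over 100%, 60.4% and 100% of the body. Over all protein-coding genes the median share of the body in the regions was 0%. In GV oocytes H3K36me3 covered at least 50% of the body of 94.1% of the 3973 genes, beside 59.4% of all genes, and H3K27me3 did so in 1.54%, beside 24.4%. By the same measure H3K27me3 covered 41.9% of the genes in c7, beside 39.4% of all genes, and 26.7% at E18.5, beside 32.9%. H3K36me3 did so in 11.4% at E18.5, beside 20.2%. The 2780 genes with at least 50% of the body in bins that became H3K27me3 only had GV H3K36me3 in 13.6% and GV H3K27me3 in 73.3%.

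H3K4me3 within 1 kb of the start marked most of these genes at each stage. It marked 89.8% in c13, beside a background of 70.4% of all protein-coding genes, and 89.8% in c34, beside 65%. At E18.5 it marked 80.2%, beside 59.8%, and in GV oocytes 88.8%, beside 72.7%. Genes of bins that became H3K27me3 only were marked in 65.2%, 42.7%, 44.4% and 64.1% at these stages. All 4 lists marked 75.8% of the genes in the regions, beside 53.5% of all genes. No list marked 146 of the 3973 genes, beside 3947 of all 20665.

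**Figure D4:**
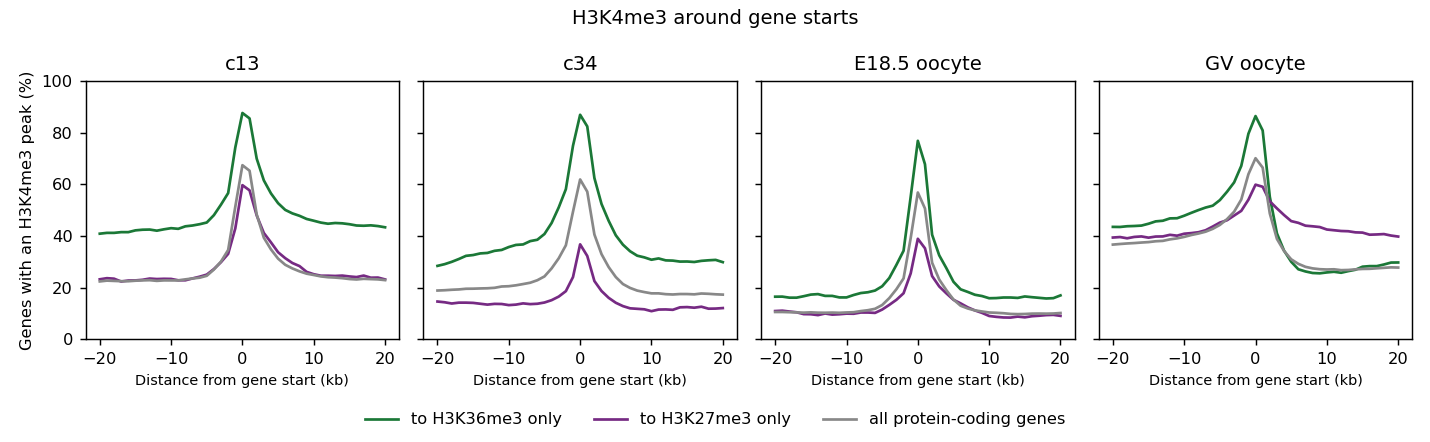
Lines give the share of genes (%) with an H3K4me3 peak by distance from the gene start (kb, negative upstream) in c13, c34, E18.5 and GV lists, for genes with a known strand in regions that became H3K36me3 only (3193), in bins that became H3K27me3 only (2091) and overall (16457). At the start the first set reaches 87.6% in c13 and 86.4% in GV oocytes, and at 20 kb downstream it has 43.4% in c13 and 29.8% in GV oocytes.

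Around the starts of these genes the GV profile was the least symmetric of the 4. At 5 kb upstream of the start 53.9% of these genes had H3K4me3 in GV oocytes, and at 5 kb downstream 30.0%. In c13 the shares were 45.2% upstream and 52.7% downstream, in c34 they were 40.8% and 40.3%, and at E18.5 they were 20.5% and 22.3%. The same asymmetry was seen over all protein-coding genes, with 44.3% upstream and 31.0% downstream in GV oocytes.

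Genes marked at the start in c34 and GV oocytes but not in c13 or at E18.5 numbered 157, or 3.95%, beside 3.27% of all protein-coding genes. Genes with the opposite pattern numbered 56, or 1.41%, beside 2.06%. Both shares lay near those of all genes. The promoters of the first kind held few CG: the median was 4 among the 128 with a known strand, and 53.9% held 4 or fewer. All genes of that pattern had the same median of 4, with 54.8% at 4 or fewer. Promoters of genes marked at all 4 stages had a median of 22 in the regions and 22 overall. Across all genes in the regions the median was 19, in bins that became H3K27me3 only 8 and over all genes 14. Of the printed promoters, those of Khdc3, Padi6 and H1f8 hold 0, 2 and 5 CG and that of Ddx4 holds 38. They are picked examples and no test of this pattern. The promoter of Akt1, a gene in the regions that was also marked at all 4 stages, holds only 8.

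Oocyte factors were the first list of interest, with 11 of 25 genes in the regions, or 44.0% beside the background of 19.2%. None of the 25 lay mostly in bins that became H3K27me3 only. The transcription factors Lhx8 and Figla, which drive primordial follicle genes, were among the 11. So were the zona pellucida genes Zp1, Zp2 and Zp3, the growth factor gene Gdf9, and Padi6, Tle6, Khdc3, Npm2 and H1f8. H3K4me3 marked the start of 7 of the 11 in c13, 11 in c34, 5 in E18.5 oocytes and 10 in GV oocytes. The shares over all genes in the regions were 89.8%, 89.8%, 80.2% and 88.8% at these stages.

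Padi6 had H3K4me3 over 10.8% of its body in c13, 95.8% in c34, 0% in E18.5 oocytes and 23.8% in GV oocytes. H1f8 had 0% in c13, 100% in c34, 0% in E18.5 oocytes and 39.0% in GV oocytes. Khdc3 had 38.1% in c13, 100% in c34, 38.1% in E18.5 oocytes and 100% in GV oocytes. The annotated start of Khdc3 lies 1017 bases from that of the printed promoter, and peaks in c13 and at E18.5 touched the body but not the start window. All of Padi6, H1f8 and Khdc3 were covered by H3K36me3 over 100% of the body in GV oocytes.

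Gdf9 and Npm2 were the exceptions in GV oocytes. Both had H3K36me3 over 0% of the body there and no H3K27me3. H3K4me3 covered 100% of the Gdf9 body and 62.0% of the Npm2 body in GV oocytes. H3K27me3 covered at least 50% of the body of 7 of the 11 oocyte factors at E18.5, among them Lhx8, Zp2, Tle6, Zp3, Gdf9 and Zp1 over 100%. Over all genes in the regions, 26.7% had H3K27me3 over at least 50% of the body at that stage.

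**Figure D5:**
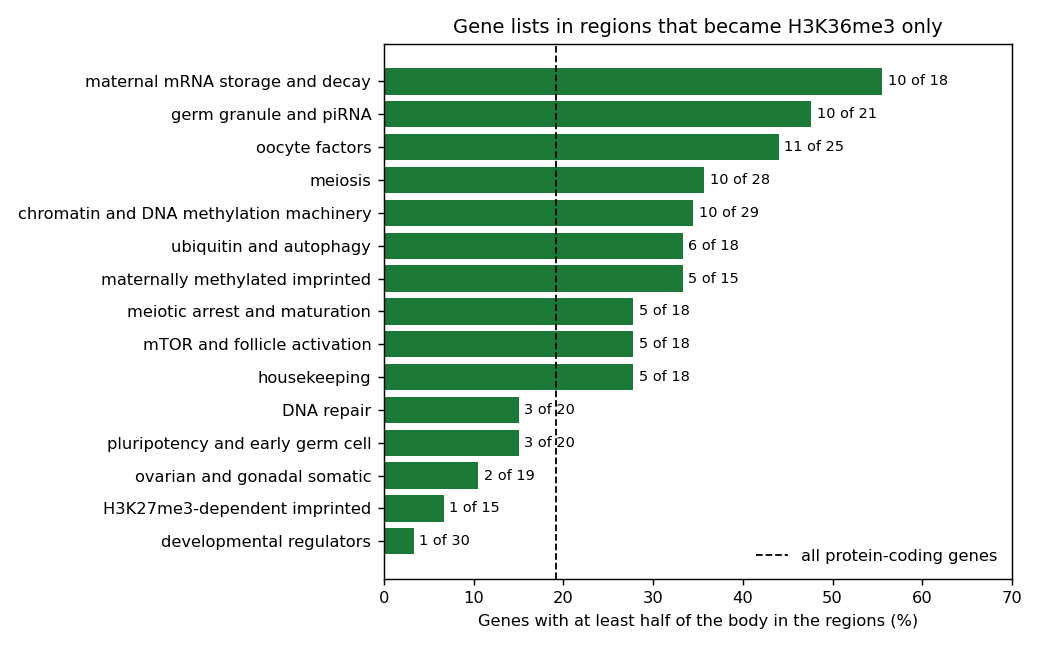
Horizontal bars give the share of each gene list (%) with at least 50% of the gene body in regions that became H3K36me3 only, with the count beside each bar and the 19.2% of all protein-coding genes as a dashed line. The storage and decay list of maternal mRNA has 10 of 18 genes and the developmental regulators 1 of 30.

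Genes that store or remove maternal mRNA had the highest share of the 15 lists, with 10 of 18 genes. The median share of the body in the regions was 99.5% in this list, beside 0% over all genes. Members included Cpeb1, which controls cytoplasmic polyadenylation, Ythdf2, a reader of methylated adenosine in mRNA, Zar1l, Pabpc1l, Igf2bp2, Zfp36l2 and Ybx2, which binds stored mRNA in germ cells. None of the 10 had H3K27me3 over 50% of the body or more at E18.5 and 1 did in c7. The shares over all genes in the regions were 26.7% at E18.5 and 41.9% in c7. Ybx2 lacked H3K36me3 in GV oocytes, where H3K4me3 covered 89.6% of its body. The other 9 had H3K36me3 over at least 50% there, as did 94.1% of all genes in the regions.

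Of the germ granule and piRNA genes, 10 of 21 lay in the regions, with a median body share of 48.6%. They were Ddx4, Mael, Gtsf1, Piwil1, Piwil2, Tdrd1, Tdrd7, Tdrd9, Nanos2 and Nanos3, and 3 further genes of the list, Dazl, Piwil4 and Tex101, became H3K27me3 only. Ddx4 was covered by H3K36me3 over 100% both at E18.5 and in GV oocytes. Tdrd1, a scaffold of germ granules, had H3K27me3 over 100% in c7 and at E18.5 and H3K36me3 over 100% in GV oocytes. Nanos2, a regulator of male germ cell fate, had H3K27me3 over 100% at E18.5, and in GV oocytes it had no H3K36me3 and H3K4me3 over 100%.

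Meiosis genes gave 10 of 28. They included the recombinase gene Dmc1, the mismatch repair gene Mlh3, the crossover genes Msh4 and Msh5, the cohesin gene Rad21l and Syce2 of the synaptonemal complex. H3K4me3 marked the start of 10 of 10 in every list, beside 75.8% of all genes in the regions and 53.5% of all protein-coding genes. With 10 genes this is not set apart from the share in the regions. Hormad2, a surveillance protein of chromosome axes, Meioc, which sustains the meiotic programme, and Msh5 had no H3K36me3 in GV oocytes. The 5 genes Mei1, Spo11, Stra8, Syce1 and Tex12 became H3K27me3 only.

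Chromatin and DNA methylation genes gave 10 of 29, and none became H3K27me3 only. The de novo methyltransferase genes Dnmt3a and Dnmt3b, their cofactor gene Dnmt3l, the oxidase gene Tet3, Uhrf1, Kmt2d, the H3K27 enzymes Ezh1 and Kdm6b, and the Polycomb genes Pcgf6 and Ring1 were among them. All 10 were covered by H3K36me3 over at least 50% of the body in GV oocytes, as were 94.1% of all genes in the regions. H3K27me3 covered at least 50% of 6 in c7 and of 6 at E18.5, beside 41.9% and 26.7% of all genes in the regions. Dnmt3l and Uhrf1 carried it over 100% at both stages.

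Of the imprinted genes with maternal DNA methylation, 5 of 15 lay in the regions: Grb10, Gnas, Igf2r, Nnat and Mcts2. In mice the methylated regions of such genes are set in growing oocytes under transcripts that carry H3K36me3. H3K36me3 covered 100% of each of these 5 bodies in GV oocytes, as it did in 82.2% of all genes in the regions. With 5 genes this is not set apart from that share. The starts of Nnat and Mcts2, both in introns of other genes in mice, lacked H3K4me3 in GV oocytes and had it in c13 and at E18.5. Of 15 genes whose imprinting in mice depends on maternal H3K27me3, only Smoc1 lay in the regions. Smoc1 went against the majority, with H3K27me3 over 100% and H3K36me3 over 0% of its body in GV oocytes.

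Genes of oocyte growth and maturation were also present. From the list of mTOR and follicle activation 5 of 18 lay in the regions, among them Foxo3, which holds primordial follicles dormant, and Rptor and Tsc2 of the mTOR pathway. From the list of meiotic arrest and maturation it was 5 of 18, with the receptor gene Gpr3, which keeps oocytes in arrest, the cyclin gene Ccnb1, Fzr1, Prkaca and Fbxo43, an inhibitor of the anaphase promoting complex. The list of ubiquitin and autophagy genes gave 6 of 18, housekeeping genes 5 of 18 and DNA repair genes 3 of 20. With so few genes a list, shares between 15.0% and 33.3% are not set apart from the 19.2% background here.

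The lists of other cell fates gave shares of 3.33%, 10.5% and 15.0%, beside the background of 19.2%. With so few genes a list, 10.5% and 15.0% are not set apart from it here. Developmental regulators gave 1 of 30, Gata4, while 16 became H3K27me3 only. Gata4, a factor of somatic gonad and heart, had 56.4% of its body in the regions. In GV oocytes H3K27me3 covered 43.6% of the body, which equals the share outside the regions. Ovarian somatic genes gave 2 of 19, Amh and Upk3b, and 7 became H3K27me3 only, among them Foxl2, Fst and Wnt4. Pluripotency and early germ cell genes gave 3 of 20, Sall4, Lin28a and Tfap2c. Each was marked by H3K4me3 at the start in all 4 lists, as were 75.8% of all genes in the regions. The 6 that became H3K27me3 only were Esrrb, Fgf4, Ifitm3, Prdm14, Tdgf1 and Utf1.

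Gene families read by symbol differed in the same measure. Cytosolic ribosomal protein genes gave 33 of 79, proteasome subunits 13 of 38, axonemal dyneins 6 of 15 and RNA polymerase subunits 9 of 28. Nearer the 19.2% of all genes were genes named Zfp with 79 of 388, solute carriers with 85 of 362, Rab genes with 13 of 55 and mitochondrial ribosomal proteins with 19 of 78. Olfactory receptor genes gave 9 of 1104, vomeronasal receptors 0 of 352, clustered protocadherins 0 of 57 and Hox genes 0 of 39. Few of the receptor genes carried both marks over at least 50% of the body in c13, 111 of 1104 olfactory and 2 of 352 vomeronasal genes, so few could meet the rule. Such c13 marking was found for 20 of 57 protocadherins and 19 of 39 Hox genes. Among keratin genes, 1 of 53 lay in the regions and 48 became H3K27me3 only. Short ribosomal genes often fit in 1 bin, which was so for 53 of 79, and neighbouring family members can share a bin or a peak, so these counts are not of independent genes.

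The genes with the greatest length in the regions were long. The median gene length was 16.3 kb in the regions, beside 17.5 kb over all protein-coding genes. Auts2 contributed 1022668 bases of the 249 Mb, or 92.5% of its body. The other long genes included Rbfox1, Arhgap26, Erc2, Cacna2d3, Ptprn2, Ptprm, Dlgap2 and Sdk1. Among those named, H3K36me3 in GV oocytes covered between 86.1% of Ptprn2 and 100% of Arhgap26 and Cacna2d3. At E18.5, H3K36me3 covered 100% of Erc2, Cacna2d3, Ptprm and Dlgap2 and 0% of Auts2, Arhgap26 and Sdk1.

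A small set of genes in the regions lacked H3K36me3 in GV oocytes. H3K36me3 was at 0% of the body in 178 of the 3973 genes, or 4.48%, beside 34.6% of all protein-coding genes. Of the 178, 69 fit in 1 bin, or 38.8%, beside 16.1% of the other genes in the regions. The median share of the body under H3K4me3 in these 178 genes was 70.4% in c13, 74.6% in c34, 25.6% in E18.5 oocytes and 100% in GV oocytes. In the 3795 genes with any GV H3K36me3 it was 54.5%, 29.9%, 15.2% and 18.6% at these stages, and over all protein-coding genes 13.3%, 10.8%, 6.19% and 14.7%. Without the genes that fit in 1 bin, the GV median was 74.1% in the 109 remaining genes without GV H3K36me3 and 16.4% in the 3185 with it. In c13 the medians of these longer genes were 45.6% and 43.3%. H3K27me3 covered at least 50% of the body of 61 genes in GV oocytes, the longest in the regions being Zfp521 and Abcc4. Akt1 and Eef2 were covered by both marks over 100% there.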

How the data were processed

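H3K4me3, H3K27me3, H3K36me3 and input were profiled in 35 libraries. The authors deposited 13 peak lists, 1 per stage and mark, in an other unit than counts: positions of peaks (base pairs) without scores. Per the file headers each line holds chromosome, start and end. Starts count from 0 and ends are inclusive. H3K27me3 and H3K36me3 peaks lie on a 10 kb grid, H3K4me3 peaks on a 1 kb grid. Builds GRCm38.p3 and mm10 and the tools MACS2 2.1.1, SICER 0.0.41, Bowtie2 2.3.4.1, Picard 2.18.23 and Trim Galore 0.4.1 are named in the submitters' processing notes. The caller of each list, its threshold, use of input and pooling were not given in the sources used here. A deeper library or looser threshold lengthens a list, and depth is unknown, so no interval for read counts could be given.

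Lists were placed on 19 autosomes in 10 kb bins with Python 3.11.15, numpy 2.4.6 and pandas 2.3.3. H3K4me3 was measured as covered length. Genes and promoters came from RefSeq tables of GRCm38.p6. Of 20665 autosomal protein-coding genes 16457 had a strand, and for the other 4208 a peak within 1 kb of either end counted. Of 329 list entries 317 were used, 6 through an older symbol. Members and lists were chosen with earlier results of these data known. Named genes were at most 10 members a list by length in the regions (Figla, the 11th oocyte factor, was added after its values were seen), up to 3 that just missed 50% of the body, the 10 with the greatest length in the regions and those in the 5 longest runs. Genes outside this naming rule were chosen after their values were seen. They are Zfp521 and Abcc4, which lie in the regions, and those listed as having become H3K27me3 only. Some genes that met the naming rule are left out of the text. The code of the rule was checked on simulated lists: 2000 of 2000 simulated members among 20000 bins were recovered, with 0 false. The simulated lists were built from the rule and without noise, so this checks the code only. Input has no list here. Alternatives changed chromosomes, c13 peak width, run length, edges, bin width, body share and start window. Keeping only genes with a strand, leaving out wide c13 peaks of 1 mark at a time and leaving out genes within 1 bin were chosen after seeing the data.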

Additional observations from a re-analysis of the deposited data

Results flagged for a closer look

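Chromosome X lies outside the rule for autosomes. It held 175 bins that met the same conditions, which is 28.3% of its 618 bins with both marks in c13, beside 31.7% on autosomes. Both marks covered only 3.62% of X bins in c13, beside 31.9% of autosomal bins. The conditions were met by 1.02% of X bins, beside 10.1% of autosomal bins. Of the 175 bins, 85.1% were H3K36me3 only in GV oocytes, and the share over all X bins is not given here. Chromosome X was noted because it lies in data outside the autosomal comparison, and no input list was used here as a control.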

How the results depend on the processing

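No paired analysis was possible because each stage and mark has 1 peak list and its columns carry no replicate numbers. For the same reason no replicate could be left out in turn. Leaving out c13 peaks of 1 Mb or more gave 2448 bins, of which 88.7% were H3K36me3 only in GV oocytes, 38.3% had H3K27me3 at E18.5 and 46.3% in c7. Gene bodies then covered 57.5%, and 84.4% of the genes had H3K4me3 at the start in c34. With runs of at least 3 bins, 92.1% of bins were H3K36me3 only in GV oocytes, GV H3K4me3 covered 24.3% and gene bodies 66.1%. Without bins that touch c34 H3K27me3 these values were 93.1%, 22.9% and 67.0%, and H3K27me3 in c7 was 43.0%. Without chromosome 11, H3K27me3 at E18.5 was 37.1%. With 50 kb bins covered over at least 50% there were 5000 bins, GV H3K4me3 covered 26.6%, and 88.3% of genes had H3K4me3 at the start in c34. A 5 kb window at the start gave 93.8%. The other 27 of 45 recomputed values included counts of 21980 to 25087 bins, and shares that moved by less than a 95% binomial interval, which covers counting only. That interval takes neighbouring bins or genes as independent, which they are not, and was also applied to shares of length. It therefore only sorts the values and measures no uncertainty. The cause of these shifts was not tested, and the bin counts fall by construction where peaks are left out or bins are wider. Unknown depth, 1 list per stage and mark and the 10 kb grid limit what these values can show.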
